A study of Mus musculus with 764 samples.

Results

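Gpr34, Gngt2, Rgs2, Dapk2, Fes, Cables1, Actn2 and Acpp are 8 of the 23997 gene rows measured in single IL-10-producing CD4+ T cells, and they were chosen by their strong bias to small intestine cells in mean level and in share of cells. The contrast between small intestine and spleen is therefore given below as a description, and no test was made of it. How the 8 genes were spread among the small intestine cells, with one another and with other genes, was not part of that choice.

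The cells came from adult IL-10eGFP Foxp3mRFP double reporter mice, in which green fluorescence reports Il10 and red fluorescence reports Foxp3. Every mouse had been given an antibody against CD3 by intraperitoneal injection, and no untreated cells were part of the data. CD4+ cells with the IL-10 reporter, Foxp3+ cells included, were taken from spleen or small intestine, and each was sequenced by SMART-seq2, a protocol that reads whole transcripts and has no molecular identifiers. Of 764 cells, 190 were from small intestine and the remainder from spleen. Filters on reads and cell cycle kept 71.1% of the former and 70.03% of the latter. The spleen cells fell into 3 sets by plate and well, which were p2, p1 columns 13 to 24 and p1 columns 1 to 12. The cells of the small intestine came from columns 13 to 24 of p2, so tissue and position on that plate cannot be told apart.

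T cells that settle in the gut lining live beside epithelial cells, hold on to them through the integrin αE (Itgae) and often store granzymes. They receive lipid, nucleotide and chemokine signals through receptors that act by heterotrimeric G proteins, which are made of α, β and γ subunits and are switched off by RGS proteins. Among the 8 genes, Gpr34 encodes a receptor for lysophosphatidylserine, Gngt2 a γ subunit best known from cone photoreceptors, and Rgs2 an RGS protein. Dapk2 encodes a calmodulin-dependent death-associated kinase and Fes a cytoplasmic tyrosine kinase known from myeloid cells. Cables1 encodes an adaptor that binds Cdk5 and Abl, Actn2 the α-actinin of muscle Z discs, and Acpp an acid phosphatase that can release adenosine from AMP outside the cell.

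Promoter sequences from RefSeq on GRCm38.p6 were matched for 5 of the 8 genes in the table used here. The 250 bases before the start of Dapk2 (chr9:66157976-66158225, plus strand), Actn2 (chr13:12340733-12340982, minus strand) and Acpp (chr9:104337723-104337972, minus strand) are shown 5′ to 3′. Dapk2 and Actn2 made the pair with the highest correlation in small intestine cells. Acpp is shown beside them, and its correlation with Dapk2 over these cells was -0.09. Capitals mark matches, on either strand, to 1 of 9 short motifs.
Dapk2: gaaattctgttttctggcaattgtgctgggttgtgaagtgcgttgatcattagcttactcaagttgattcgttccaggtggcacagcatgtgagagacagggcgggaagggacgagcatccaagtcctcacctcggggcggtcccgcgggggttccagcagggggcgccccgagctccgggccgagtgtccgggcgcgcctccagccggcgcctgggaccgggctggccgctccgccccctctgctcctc
Actn2: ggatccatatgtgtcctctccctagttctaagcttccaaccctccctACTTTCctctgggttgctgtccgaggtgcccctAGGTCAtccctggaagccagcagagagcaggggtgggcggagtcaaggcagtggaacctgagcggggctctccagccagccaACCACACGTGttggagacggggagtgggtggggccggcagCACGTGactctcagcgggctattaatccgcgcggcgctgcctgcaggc
Acpp: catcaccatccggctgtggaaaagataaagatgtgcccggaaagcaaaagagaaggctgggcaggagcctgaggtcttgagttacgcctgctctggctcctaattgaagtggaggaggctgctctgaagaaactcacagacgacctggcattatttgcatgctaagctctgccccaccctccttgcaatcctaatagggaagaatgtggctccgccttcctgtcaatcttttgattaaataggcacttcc

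The core motifs searched were GTGTGA for T-box factors, TGTGGT for RUNX factors, GCGTG for AHR, CACGTG for the E-box protein Bhlhe40, AGGTCA for nuclear receptors, TGACTCA for AP-1, TTCNNNGAA for STAT factors, ACTTTC for Blimp-1 and CAGACA for SMAD proteins. In Actn2, CACGTG occurred 2 times, a motif present in the same window of 6.02% of the 32851 promoters of the table. Actn2 also held ACTTTC (12.3% of promoters), AGGTCA (14% of promoters) and the RUNX motif (14% of promoters), the latter on the other strand and overlapping the first of the E-box matches. None of the 9 motifs matched in the windows of Dapk2 and Acpp, and GCGTG (28.2% of promoters) was the only match in those of Fes and Rgs2. These matches describe letters and no binding. The windows of Dapk2, Actn2 and Acpp held 65.2%, 63.2% and 50.4% G and C, against a median of 52.4% over all promoters.

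Each tissue counted as 1 sample, since the labels named no animal, so no p-value is given anywhere. Shares of cells are followed by their 95% Clopper-Pearson interval, which covers the counting error over cells only. It leaves out differences between animals, since cells of 1 sample are not replicates. Where intervals are said to lie apart or to overlap, the share of all genes that did so is not given, so this only describes the values. Reads copied by PCR are not independent molecules. Median reads per kept cell were 325136 in the small intestine and lay between 319657 and 366140 in the spleen sets. Cd3e and Cd4 had at least 10 reads in 100% and 99.3% of small intestine cells, which matches the labelled cell type. Of the lists for other cell types, 2 of 7 B cell genes, 4 of 10 macrophage and monocyte genes, 3 of 9 dendritic cell genes, 8 of 10 mast cell and basophil genes, 3 of 6 neutrophil genes, 5 of 13 muscle and stroma genes and 4 of 9 NK and innate lymphoid cell genes had no read in these cells, as had 41.7% of all genes. None of 12 epithelial and 2 gamma-delta T cell genes lacked reads. Lyz2, C1qb, C1qc, Ms4a1, Des and Tnnt2 were among those with none.

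Several such markers were higher in the small intestine than in the spleen, while other markers were lower. Cd68, a macrophage marker, was at 103.9 CPM (reads of a gene per 1000000 gene reads of the cell) against 28.01 CPM and was held by 31.9% of small intestine cells at 10 reads. Kit, the mast cell receptor also listed for innate lymphoid cells, was at 25.1 CPM against 0.0859 CPM (8.15% of cells), the stromal receptor gene Pdgfrb at 14.4 CPM against 0.0104 CPM (5.93%), the epithelial keratin gene Krt18 at 11.2 CPM against 0.623 CPM (5.93%) and Blk, from the gamma-delta T cell list, at 31.1 CPM against 0.178 CPM (6.67%). Of 7 macrophage and monocyte genes with a mean of at least 1 CPM in either tissue, none was at least 4-fold higher and 2 were lower. Their median log2 ratio of small intestine over spleen was -1.67. For 5 dendritic cell genes it was -3.12, with 3 at least 4-fold lower, and for 3 B cell genes -0.80, with 1 lower. Summed over the 10 macrophage and monocyte genes the level was 111.3 CPM in the small intestine and between 59.4 CPM and 101.2 CPM in the spleen sets. Cd68 alone made up 103.9 CPM of that small intestine sum. Within the small intestine this sum was 133.7 CPM in cells with at least 3 of the 8 genes and 44.7 CPM in the others. For the B cell list these sums were 24.6 CPM and 3.6 CPM, for the epithelial list 45.8 CPM and 28.99 CPM, for the muscle and stroma list 39.9 CPM and 47.6 CPM and for the mast cell and basophil list 20.9 CPM and 39.1 CPM. Of the B cell sum over all small intestine cells (19.3 CPM), Cd79b made up 18.45 CPM. The part of these markers in the results was not tested.

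In mean CPM, all 8 genes were at least 4-fold higher in the small intestine than in the spleen, a size reached by 3.48% of the 11862 genes with a mean of at least 1 CPM in either tissue. All 8 also did so against each of the 3 spleen sets, as did 2.28% of genes. Each was held by a share of cells at least 4 times that in the spleen, as were 2.68% of the genes held by at least 5% of small intestine cells. None was 4-fold lower, as 5.64% of genes were. These counts restate the choice of the genes, and nothing is read from them. Over all genes the median log2 ratio was -0.23, where the ratio is that of mean CPM plus 1, small intestine over spleen.

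Gpr34 was nearly absent from the spleen. It averaged 231.1 CPM in the small intestine, against 1.87 CPM in p2, 0.229 CPM in p1 columns 13 to 24 and 0.0184 CPM in p1 columns 1 to 12, and its log2 ratio over the spleen was 7.12. At least 10 reads were found in 40 small intestine cells (29.6%, 22.1% to 38.1%) and in 1 spleen cell (0.249%, 0.0063% to 1.38%). That spleen cell lay in p2 and held 54 of the 69 Gpr34 reads of the spleen. In p1 columns 1 to 12 a single read was counted. The ratio of pooled reads, scaled to equal totals, was 11656 there, with a counting interval from 2092 to 460425. That interval treats reads as independent molecules, which PCR copies are not. Against p2 and p1 columns 13 to 24 the ratio was 172.7 and 1249.8. Among small intestine cells with at least 10 reads, levels ran from 26.3 CPM to 3017 CPM with a median of 530.5 CPM, and the 3 cells with most reads held 25.2% of all Gpr34 reads there.

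Gngt2 was found in the highest share of cells of the 8 genes, in the small intestine and in the spleen. Its mean was 113.5 CPM, against 18.3 CPM in p2, 12.1 CPM in p1 columns 1 to 12 and 5.23 CPM in p1 columns 13 to 24, with a log2 ratio of 3.19 over the spleen. At least 10 reads were found in 100 small intestine cells (74.1%, 65.8% to 81.2%) and in 53 spleen cells (13.2%, 10.03% to 16.9%). Within the spleen the share was 19.4% in p2 (12.8% to 27.4%) and 6.90% in p1 columns 13 to 24 (3.36% to 12.3%), intervals that did not overlap. In cells that held it, levels ran from 29.6 CPM to 497.9 CPM (median 127.4 CPM) in the small intestine and from 27.5 CPM to 471.9 CPM (median 66.5 CPM) in the spleen. The ranges thus overlapped, and the tissues differed mostly in the share of cells.

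Rgs2 averaged 240.4 CPM in the small intestine, against 9.77 CPM in p2, 7.35 CPM in p1 columns 13 to 24 and 18.1 CPM in p1 columns 1 to 12, a log2 ratio of 4.25 over the spleen. It had at least 10 reads in 60 small intestine cells (44.4%, 35.9% to 53.2%) and 20 spleen cells (4.98%, 3.07% to 7.58%). The shares of the spleen sets, from 4.14% to 6.02%, had overlapping intervals. Levels in cells that held it ran from 38.3 CPM to 2281 CPM in the small intestine (quartiles 187.9 CPM and 811.8 CPM) and from 76.4 CPM to 823.8 CPM in the spleen (quartiles 123.3 CPM and 242.7 CPM).

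Dapk2 had 83 reads in all spleen cells together and 5303 in the small intestine cells. It averaged 118.7 CPM in the small intestine, 0.362 CPM in p2 and 1.36 CPM in p1 columns 13 to 24, and the log2 ratio over the spleen was 6.22. No read was found in any cell of p1 columns 1 to 12. Set against 3 reads in that set, the small intestine was 1927-fold higher in pooled reads. PCR copies are not independent molecules, so this value is no firm lower bound. Against p2 and p1 columns 13 to 24 the ratio of pooled reads was 261.5 and 96.9. In the small intestine 53 cells held at least 10 reads (39.3%, 30.97% to 48.03%), against 4 spleen cells (0.995%, 0.272% to 2.53%), and their levels ran from 36.4 CPM to 903.6 CPM (quartiles 158.3 CPM and 380.7 CPM).

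Fes, the other kinase, was present in both tissues. It averaged 103.3 CPM in the small intestine, against 5.02 CPM in p2, 9.58 CPM in p1 columns 13 to 24 and 9.10 CPM in p1 columns 1 to 12, a log2 ratio of 3.53. At least 10 reads were found in 59 small intestine cells (43.7%, 35.2% to 52.5%) and 14 spleen cells (3.48%, 1.92% to 5.77%), with overlapping intervals among the spleen sets. In p1 columns 1 to 12, 91.8% of the Fes reads came from 3 cells.

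Cables1 averaged 130.2 CPM in the small intestine, 3.46 CPM in p2 and 0.718 CPM in p1 columns 1 to 12, a log2 ratio of 5.83. No read was found in p1 columns 13 to 24, and against 3 reads in that set the small intestine was 2237-fold higher in pooled reads. Again this is no firm lower bound. Against p2 and p1 columns 1 to 12 the ratio of pooled reads was 36.85 and 156.5. At least 10 reads were found in 44 small intestine cells (32.6%, 24.8% to 41.2%) and 3 spleen cells (0.746%, 0.154% to 2.17%). Levels in the small intestine cells that held it ran from 39.3 CPM to 1531 CPM, with a median of 277.3 CPM.

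Actn2 had at least 10 reads in 84 small intestine cells (62.2%, 53.5% to 70.4%) and in 8 spleen cells (1.99%, 0.863% to 3.88%). Its mean was 155.2 CPM in the small intestine, against 2.81 CPM in p2, 4.35 CPM in p1 columns 13 to 24 and 0.308 CPM in p1 columns 1 to 12, a log2 ratio of 5.47. Reads were evenly spread, with 10.6% of them in the 3 cells that held most. Of other genes of the muscle and stroma list, Des and Tnnt2 were at 0 reads in both tissues, Pdgfrb and Myl9 were at least 4-fold higher in the small intestine, and summed over the 13 muscle and stroma genes the level was 41.9 CPM in the small intestine and between 37.5 CPM and 80.4 CPM in the spleen sets.

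Acpp averaged 109.4 CPM in the small intestine, against 22.1 CPM in p2, 17.4 CPM in p1 columns 1 to 12 and 3.11 CPM in p1 columns 13 to 24, and its log2 ratio of 2.91 was the smallest of the 8. At least 10 reads were found in 38 small intestine cells (28.1%, 20.7% to 36.5%) and 20 spleen cells (4.98%, 3.07% to 7.58%). In cells that held it, levels ran from 26.2 CPM to 1203 CPM in the small intestine (median 313.2 CPM) and from 41.9 CPM to 876 CPM in the spleen (median 209.5 CPM), so that these ranges overlapped.

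**Figure D1:**
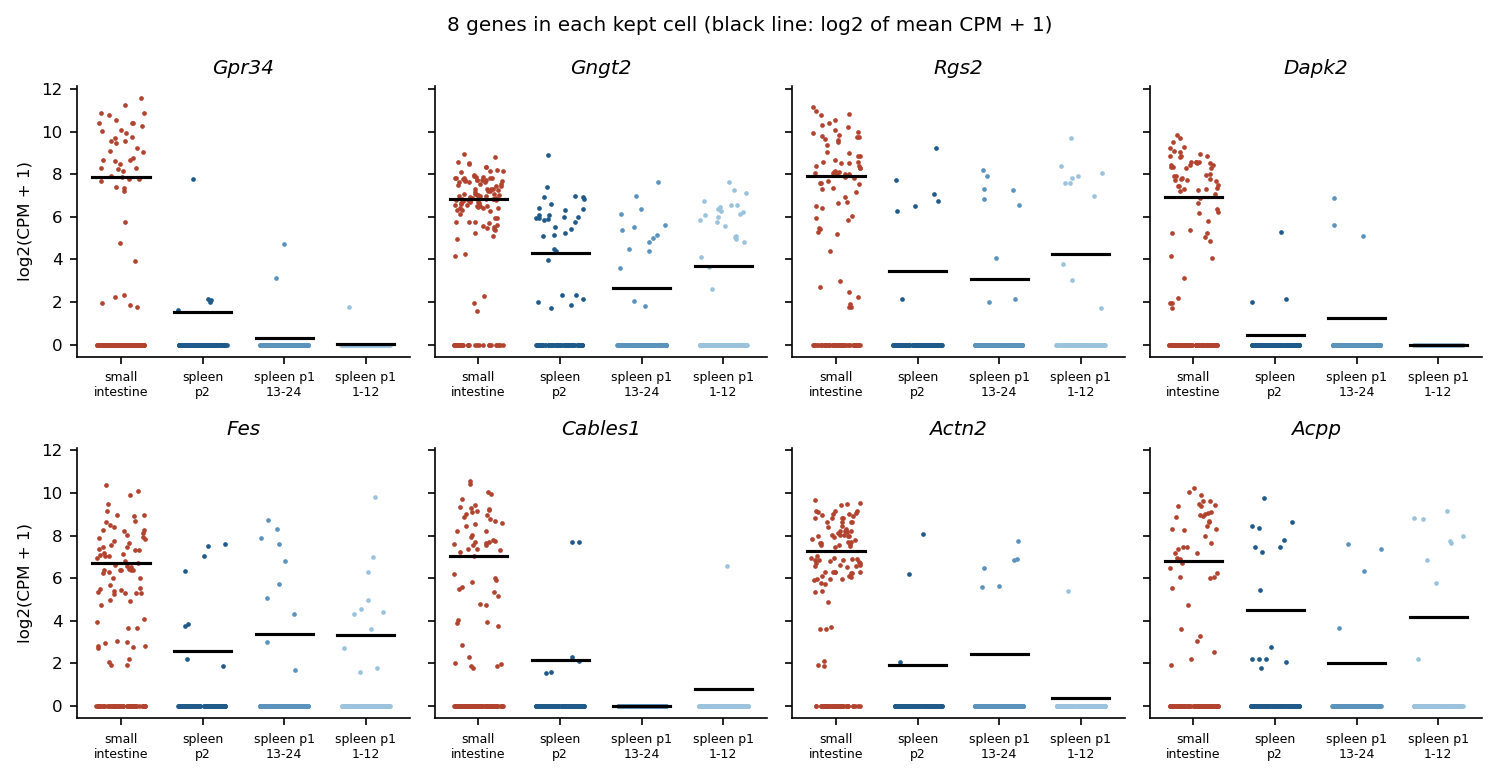
Level of each gene in each kept cell as log2(CPM + 1), with 1 point per cell and a black line at the log2 of the mean CPM plus 1 of the set. All the genes are at 0 in most spleen cells. Fewer spleen cells lie above 0 for Gpr34, Dapk2, Cables1 and Actn2 than for Gngt2, Rgs2, Fes and Acpp. Scattered spleen cells reach the range of small intestine cells for each gene.

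Read counts rise with transcript length, so the shares of different genes are not levels to be ranked. The median share over the 8 genes was 41.5% in the small intestine and 2.74% in the spleen. After thinning to 200000 reads per cell, which left out 5 small intestine and 23 spleen cells, shares of cells with any read ran from 30% to 76.9% in the small intestine and from 1.055% to 16.9% in the spleen. Without thinning they ran from 32.6% to 77.8% and from 1.49% to 17.7%.

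**Figure D2:**
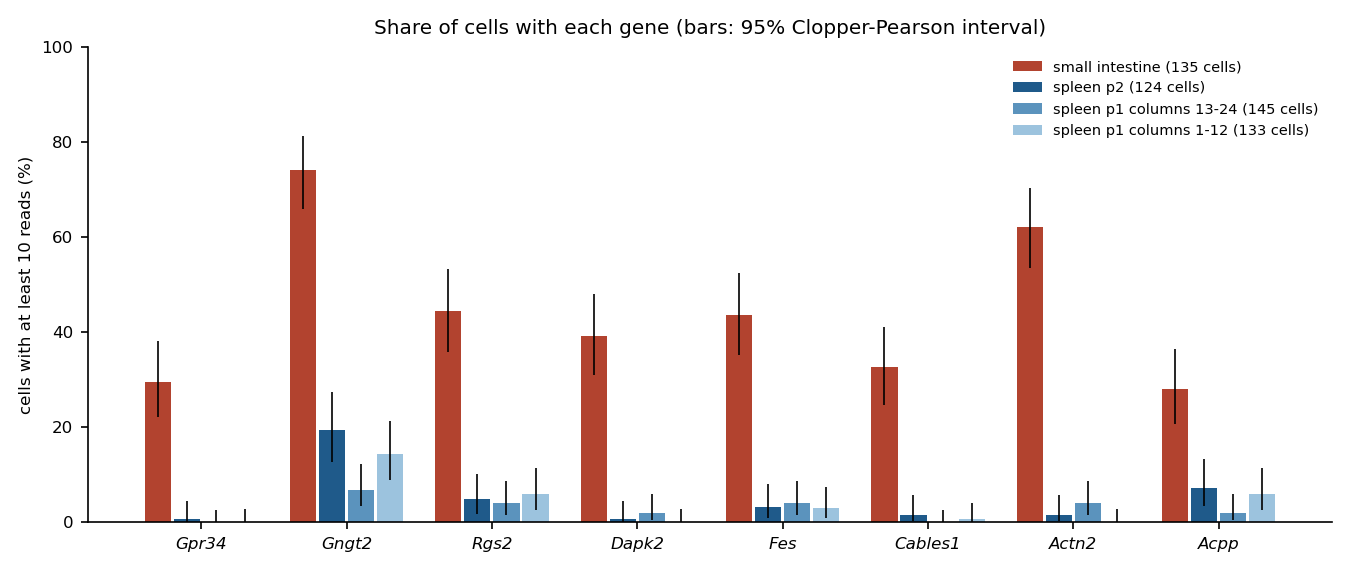
Percent of cells with at least 10 reads of each gene in the small intestine and in the 3 spleen sets, with 95% Clopper-Pearson intervals. The lowest small intestine share is 28.1% (Acpp) and the highest spleen share is 19.4% (Gngt2 in p2).

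Every small intestine cell held at least 1 of the 8 genes at 10 reads, with a mean of 3.54 genes per cell (SD over cells 1.41, range 1 to 7). At least 3 were held by 74.8% of cells, and none held all 8. In the spleen 25.1% of cells held at least 1 (20.96% to 29.66%), with 29.8% in p2, 26.3% in p1 columns 1 to 12 and 20% in p1 columns 13 to 24. More than 1 was held by 21 spleen cells (5.22%), and 1 cell held 3, the highest number. Over small intestine cells, the number of the 8 genes had a Spearman correlation of 0.00 with total reads and 0.28 with the number of genes read. At 10 reads, neither the 21 spleen cells with more than 1 of the genes nor spleen cells with none held Itga1 or Cd8a. In the 21 cells Itgae and Gzma were held by 1 cell each (4.76%), against 2.99% and 3.99% of cells with none. Gzmb was held by 47.6% (25.7% to 70.2%) against 31.9% (26.7% to 37.5%), and Ccr9 by 14.3% (3.05% to 36.3%) against 5.65% (3.32% to 8.89%). Foxp3 was held by 5 cells (23.8%, 8.22% to 47.2%) against 21.6% (17.1% to 26.7%), and Il10 by 66.7% against 76.1%. The intervals overlapped for each of these markers.

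Whether the 8 genes were found in the same small intestine cells was examined in their 28 pairs. A pair was found together more often than the product of its shares in 14 of 28 cases, near the 55.1% of all gene pairs that did so. The median Spearman correlation over these cells was 0.00, against 0.01 over all pairs of the 8166 genes with at least 10 reads in at least 5% of these cells. In 20 of the 28 pairs it was under 0.1 in size, as it was in 24512382 of the 33337695 pairs of these 8166 genes. A correlation of at least 0.2 was reached by 3 pairs, against 2.02% of all pairs. All correlations are over cells of the same tissue and plate, and they are given as a description. Reads per cell ran from 171248 to 580400 there, and the genes of a pair share the depth of each cell.

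These 3 pairs all included Dapk2. Dapk2 and Actn2 had a correlation of 0.27 and shared 37 cells, against 32.98 from the product of their shares. Gpr34 and Dapk2 had 0.26 and shared 22 cells, against 15.7 from the product. Dapk2 and Cables1 had 0.24 and shared 21 cells, against 17.3. Gngt2 and Rgs2 came next at 0.16, with 51 shared cells, followed by Actn2 with Gngt2 and Gpr34 with Cables1 at 0.14. Gpr34 and Cables1 shared 18 cells against 13.04. The lowest value was -0.14, for Cables1 and Acpp, which shared 7 cells against 12.4. Thinned to 200000 reads, the correlations of the 3 pairs with Dapk2, of Gpr34 with Cables1 and of Cables1 with Acpp were 0.25, 0.24, 0.24, 0.15 and -0.14. Each of the 3 pairs with Dapk2 fell under 0.2 in some subset of cells. Dapk2 and Actn2 came to 0.14 without Cd8a cells, and in well columns 19 to 24 alone Gpr34 and Dapk2 came to 0.14 and Dapk2 and Cables1 to 0.14, against 0.40 and 0.35 in columns 13 to 18.

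**Figure D3:**
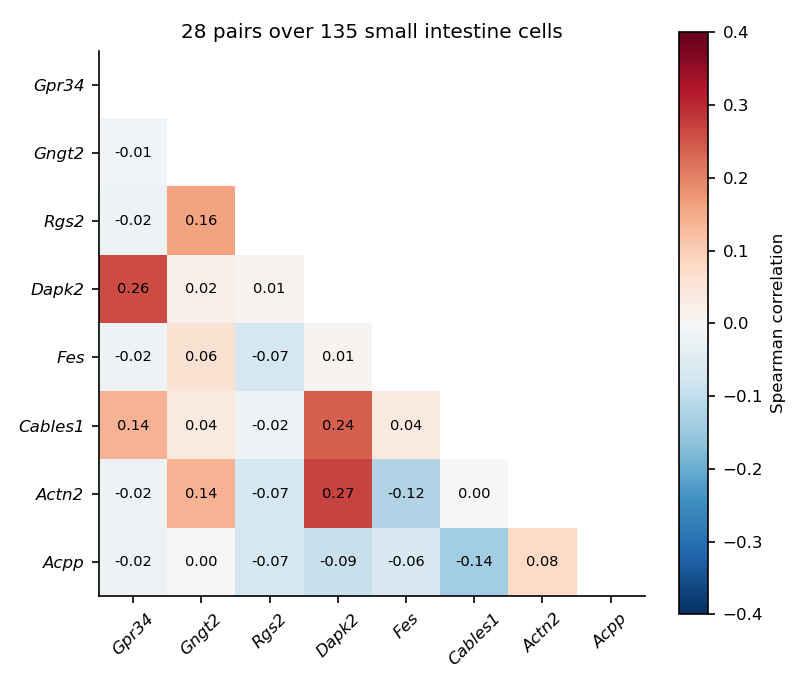
Spearman correlation of each of the 28 pairs over the kept small intestine cells, from blue (negative) to red (positive). Dapk2 with Actn2 (0.27), Gpr34 (0.26) and Cables1 (0.24) stands out, and most other squares are pale.

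Small intestine cells were next split by markers that name known states: Itgae, the integrin of intraepithelial cells, Itga1, the collagen-binding integrin of resident cells, Cd8a, which some gut CD4+ cells also make, and Il17a, the Th17 cytokine. A cell counted as holding a marker at 10 reads. The splits overlapped: Itgae was held by 26 of 27 Cd8a cells, 46 of 57 Itga1 cells and 3 of 23 Il17a cells. Median reads were 326192 with and 323668 without Itgae, and 323094 with and 325637 without Il17a.

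Gpr34, Dapk2 and Cables1 were more frequent in cells with Itgae. Gpr34 was held by 32 of 80 Itgae cells (40%, 29.2% to 51.6%) and 8 of 55 others (14.5%, 6.50% to 26.7%). Dapk2 was held by 43 Itgae cells (53.8%, 42.2% to 64.97%) and 10 others (18.2%, 9.08% to 30.9%). For Cables1 the shares were 40% (29.2% to 51.6%) and 21.8% (11.8% to 35.01%), intervals that overlapped. A share at least 2-fold higher in Itgae cells was thus found for 2 of the 8 genes, Gpr34 and Dapk2, against 6.12% of all 8165 genes compared, and none was at least 2-fold lower there, against 6.18%. The shares of Gngt2 (76.2% and 70.9%), Rgs2 (46.2% and 41.8%), Fes (48.8% and 36.4%) and Actn2 (66.2% and 56.4%) had overlapping intervals, and Acpp was at 23.8% and 34.5%, overlapping too.

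The same 3 genes had lower shares in cells with Il17a, with intervals apart for Dapk2 and overlapping for Gpr34 and Cables1. Gpr34 was held by 2 of 23 Il17a cells (8.70%, 1.07% to 28.04%) and 33.9% of the others (25.2% to 43.5%). Dapk2 was also held by 2 Il17a cells (8.70%), against 45.5% of the others (36.1% to 55.2%), and Cables1 by 3 (13.04%, 2.78% to 33.6%), against 36.6% (27.7% to 46.2%). These 3 of the 8 genes were at least 2-fold less frequent with Il17a, as were 12.3% of all genes, and none was at least 2-fold more frequent, as 8.89% were. Acpp ran the other way, in 11 of 23 Il17a cells (47.8%, 26.8% to 69.4%) and 24.1% of the others (16.5% to 33.1%), and these intervals overlapped. Gngt2 (78.3% and 73.2%), Actn2 (69.6% and 60.7%), Fes (52.2% and 41.96%) and Rgs2 (39.1% and 45.5%) were found in Il17a cells at shares with overlapping intervals.

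Without the Il17a cells, shares with and without Itgae were 41.6% (30.4% to 53.4%) and 17.1% (6.56% to 33.6%) for Gpr34, and 54.5% (42.8% to 65.9%) and 25.7% (12.5% to 43.3%) for Dapk2, intervals that now overlapped for both. Cables1 came to 40.3% and 28.6%, and Acpp to 24.7% with and 22.9% without Itgae. This comparison was added after the values were seen. Within well columns 19 to 24 alone, Gpr34 was at 35% and 21.4%, a smaller gap than the 45% and 7.41% of columns 13 to 18.

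Dapk2 was also more frequent in cells with Cd8a and in those with Itga1. It was held by 18 of 27 Cd8a cells (66.7%, 46.04% to 83.5%) and 32.4% of the others (23.7% to 42.1%), and was the only one of the 8 genes at least 2-fold more frequent there, as were 5.4% of all genes. Actn2 was held by 25 Cd8a cells (92.6%, 75.7% to 99.1%) and 54.6% of the others (44.8% to 64.2%). With Itga1, Dapk2 was held by 35 of 57 cells (61.4%, 47.6% to 74%) and 23.1% of the others (14.3% to 34%), again the only one at least 2-fold more frequent, as were 4.69% of genes. Gpr34 (40.4% and 21.8%), Cables1 (40.4% and 26.9%), Actn2 (73.7% and 53.8%) and Rgs2 (52.6% and 38.5%) had overlapping intervals with and without Itga1. None was at least 2-fold less frequent with Cd8a or with Itga1, as were 13.9% and 6.97% of genes. Gngt2 was at 74.1% with and without Cd8a and at 73.7% and 74.4% with and without Itga1. Foxp3 was held by only 5 small intestine cells, too few for a split.

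**Figure D4:**
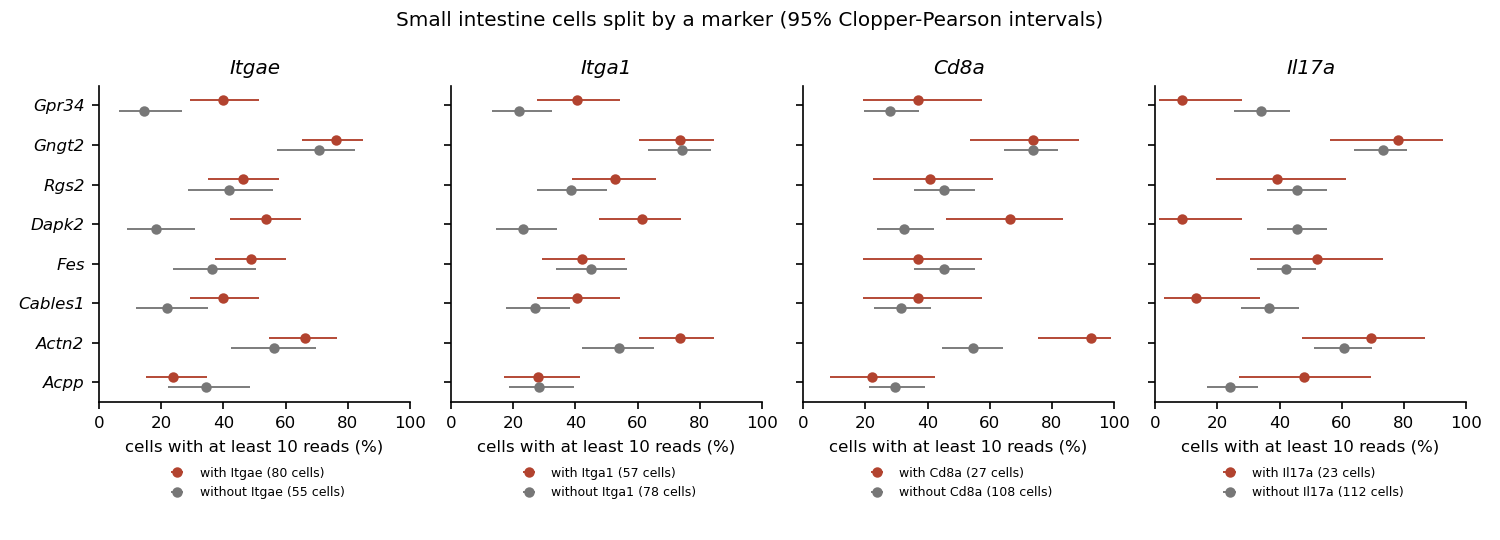
Percent of small intestine cells with at least 10 reads of each gene, with (red) and without (grey) Itgae, Itga1, Cd8a or Il17a, with 95% Clopper-Pearson intervals. Intervals lie apart for Gpr34 by Itgae, for Actn2 by Cd8a and for Dapk2 by all 4 markers, while Gngt2 is at 70.9% or more on both sides of each split. The share of all genes with intervals apart is not given, so this is a description only.

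Gpr34, Dapk2 and Cables1 were therefore counted together in each small intestine cell, a grouping chosen after the values were seen. The steps in Itgae and Il17a restate the choice, and nothing is read from them. The other steps come from the same cells and are tied to the choice too, so they are given as a description only. Dapk2 was more frequent with Itga1 and Cd8a, and 46 of 57 Itga1 cells and 26 of 27 Cd8a cells held Itgae. Median Gzmb was higher in cells with each of the 3 genes than in those without. This was not particular to them. It was also higher with than without Gngt2 (17674 CPM and 7695 CPM), Rgs2 (18299 CPM and 12864 CPM) and Actn2 (16108 CPM and 13049 CPM). It was lower with Fes (15038 CPM and 15788 CPM) and Acpp (11954 CPM and 16296 CPM). None of Gpr34, Dapk2 and Cables1 was held by 49 cells, 1 of them by 45, 2 by 31 and all 3 by 10 cells. Along these steps the share with Itgae was 32.7%, 66.7%, 80.6% and 90%, and that with Itga1 was 22.4%, 42.2%, 61.3% and 80%. The share with Cd8a, at 8.16%, 28.9%, 16.1% and 50%, did not rise at every step. The share with Il17a was 36.7% (23.4% to 51.7%) in cells with none and 6.67%, 6.45% and 0% in the others, where 0 of 10 cells allows a share of up to 30%. Acpp was held by 40.8%, 22.2%, 19.4% and 20%. The median level of Gzmb, encoding granzyme B, was 4499 CPM with none, 15920.2 CPM with 1, 22871 CPM with 2 and 32512 CPM with all 3. Median reads stayed between 322760 and 329111, and median Il10 between 1535 CPM and 2106 CPM without an order along the steps.

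**Figure D5:**
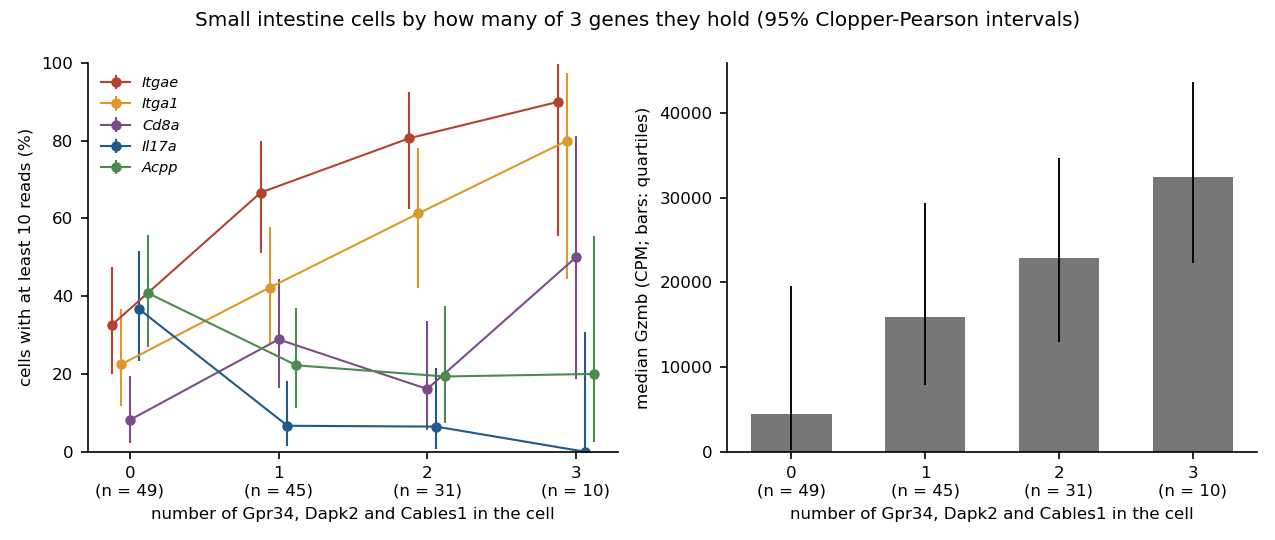
Left, percent of small intestine cells with Itgae, Itga1, Cd8a, Il17a or Acpp at 10 reads by how many of Gpr34, Dapk2 and Cables1 the cell held, with 95% Clopper-Pearson intervals. Right, median Gzmb in CPM with its quartiles, which rises from 4499 CPM to 32512 CPM over the 4 steps. The grouping was chosen after the values were seen, and the steps are a description only.

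The genes most like each of the 8 were then named by Spearman correlation over the kept cells, among 6562 genes with at least 10 reads in at least 10% of them. For Gpr34 these were Cd200r4, a CD200 receptor family gene (0.43), and Gzmb (0.38). Median Gzmb was 28557 CPM in cells with Gpr34 (quartiles 18354 CPM and 37772 CPM) and 10229.8 CPM in those without (3396 CPM and 21989 CPM). For Dapk2 they were Amica1, a junctional adhesion molecule (0.43), and Itga1 (0.42). For Cables1 they were a row whose name the tables hold as a date (0.32) and Itgae (0.32). Actn2 was most like Vim, the intermediate filament vimentin (0.36), which was held by 91.1% of small intestine cells.

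Of the other genes, Fes was most like Furin (0.35) and Mfsd5 (0.34), Gngt2 like Acat1 (0.35) and Ppp1r3b (0.34), Rgs2 like Slc30a9 (0.33) and Naa35 (0.31), and Acpp like Tmem176a (0.33) and Anapc7 (0.33). The number of the 8 genes per cell was most like Gzmb (0.40), followed by Amica1, Ddx58, Itga1, Pltp, Ncf1, Gzma and Hvcn1, with values down to 0.32. Highest values among so many genes are high by selection, and these are given as names only. Il10 itself had no common direction. Its median was 2494 CPM with and 1595 CPM without Acpp, 1580 CPM with and 2319 CPM without Actn2, and 1607 CPM with and 2398 CPM without Gngt2, with overlapping quartiles in each case.

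The neighbours of the genes on the chromosome were checked, since reads of overlapping genes cannot be told apart without strand, and use of strand is not given in the sources used here. Gngt2 overlaps Abi3, an adaptor of the WAVE complex, on the opposite strand. Abi3 averaged 241.6 CPM in small intestine cells against 21.4 CPM in spleen cells, a log2 ratio of 3.43, so the counts of Gngt2 are uncertain. Abi3 was held by 80 of 100 small intestine cells with Gngt2 and 71.4% of those without, a correlation of 0.15. The flanking genes Phospho1 and B4galnt2 had log2 ratios of 2.01 and 3.40, from means of 4.17 CPM and 21.6 CPM in the small intestine.

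Fes lies beside Furin, which encodes a protease that cuts proproteins at basic sites, on the same strand without overlap. Furin averaged 782 CPM in small intestine cells against 120.7 CPM in spleen cells, a log2 ratio of 2.69. All 59 small intestine cells with Fes held Furin, as did 90.8% of those without Fes. In the spleen 11 of 14 cells with Fes held Furin (78.6%), against 33.8% of the others, and the correlation was 0.30. Man2a2 on the other side of Fes had a log2 ratio of 0.29. Gpr34 lies within Cask on the opposite strand, and Cask averaged 0.995 CPM in small intestine cells against 3.75 CPM in spleen cells. The measured neighbours of Dapk2, Cables1, Actn2, Rgs2 and Acpp had log2 ratios between -0.88 and 0.22.

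Relatives of the genes moved in different ways. Among 24 receptors for lipids and nucleotides that passed the minimum of 1 CPM, 4 were at least 4-fold higher in the small intestine (Gpr34 among them) and 1 lower, with a median log2 ratio of 0.85 against -0.23 over all genes. P2ry10, another lysophosphatidylserine receptor, averaged 488.4 CPM in small intestine cells and 113.7 CPM in spleen cells (log2 ratio 2.09). Gpr174, a further receptor of that lipid, averaged 99.4 CPM and 206.7 CPM (log2 ratio -1.05). The gene with the highest mean of the list was Gpr171, at 1201 CPM in small intestine cells and from 234.7 CPM to 300.2 CPM in the spleen sets (2.14), and S1pr1, the receptor that guides exit into the blood, was the one lower, at 2.19 CPM and 277.4 CPM (-6.45).

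Among 19 G protein subunits, Gngt2 alone was at least 4-fold higher and Gng12 alone lower (-2.13), with a median of -0.05. The γ subunit Gng2 averaged 267.6 CPM in small intestine cells and 140 CPM in spleen cells (0.93). Among 11 RGS genes, Rgs2 and Rgs1 were higher and Rgs11 lower, with a median of 0.19. Rgs1, like Rgs2 a brake on G protein signals, averaged 8438 CPM and 631 CPM (3.74) and was held by every small intestine cell. Rgs2 thus differed from Rgs1 in being held by 44.4% of them.

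Among 13 calmodulin-dependent kinases, Dapk2 alone was at least 4-fold higher and none lower (median -0.33). Its relatives did not share this: Dapk3 averaged 24.6 CPM against 31.1 CPM in the spleen (-0.33), Stk17b 2617 CPM and 1233 CPM (1.09), and Dapk1 had no read in the small intestine. Among 22 cytoplasmic tyrosine kinases, Fes, Blk (4.77) and Src (2.45) were higher, with a median of -0.03. Lck and Zap70, the kinases of T cell receptor signalling, had log2 ratios of -0.22 and -0.21.

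Of 8 genes of the Cables and Cdk5 list, Cables1 was higher and none lower (median 0.06). Cables2 averaged 25.6 CPM against 22.8 CPM in the spleen (0.16), and Cdk5 50.2 CPM and 41.5 CPM (0.27). Among 13 α-actinins and partners, Actn2 was higher and 3 were lower, Actn1, Pdlim1 and Pdlim4 (median -0.30). Actn1, the non-muscle α-actinin, averaged 1.5 CPM against 25.3 CPM in the spleen (-3.39), the opposite of Actn2. Actn4, the other non-muscle form, averaged 151.8 CPM and 180.9 CPM (-0.25).

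Among 12 acid phosphatases and genes of extracellular nucleotides, Acpp and Enpp2 (2.55, from 14.1 CPM and 1.58 CPM) were higher, and Adk and Slc29a1 lower, with a median of -0.14. Nt5e, which like Acpp can form adenosine from AMP, averaged 430.6 CPM in small intestine cells and from 226.4 CPM to 403.2 CPM in the spleen sets (0.46). Adk, the kinase that removes adenosine inside the cell, averaged 3.11 CPM and, in the spleen sets, from 86.02 CPM to 178.6 CPM (-4.97), and Slc29a1, a transporter of adenosine, 46.6 CPM against 219.1 CPM in the spleen (-2.21). For comparison, 12 of 21 genes of intraepithelial and resident T cells were at least 4-fold higher, Gzma, Itga1, Itgae and Cd8a among them. In the same list 1 gene, Xcl1, was at least 4-fold lower (-2.93), and the median was 2.87.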

How the data were processed

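Single cells were sequenced by SMART-seq2, and the paired-end reads were aligned by the authors with STAR in 2 passes. Per the labels the genome was mm10, whereas the methods of the study name Mm8; the counting tool and annotation are not given in the sources used here. The authors deposited raw read counts per gene, 1 column per cell, and no column was left unused. The deposited names carry no coordinates, 88 rows join several genes, and 2 names are on more than 1 row.

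Cells whose log reads or log genes lay over 3 median absolute deviations below the median of their tissue were removed (19 of 190 small intestine and 31 of 574 spleen cells), followed by cells called S or G2M by cyclone in scran 1.30.0 (36 and 141), which kept 135 small intestine and 402 spleen cells, 124 in p2, 145 in p1 columns 13 to 24 and 133 in p1 columns 1 to 12. No doublet caller was run on these singly sorted cells. CPM was computed here per cell over gene rows without the eGFP reporter. A cell held a gene at 10 or more reads. Ratios used a pseudocount of 1 CPM, which understates those of low genes. A count of 0 was set against a floor of 3. Ratios, shares and correlations were computed with Python 3.11.15, pandas 2.3.3 and scipy 1.17.1, and tested on simulated data. TMM (edgeR 4.0.16) and DESeq2 1.42.0 size factors entered only as alternative scalings.

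The 8 genes, the gene lists and the markers were chosen with earlier results of these data known. Beyond the 8 genes, those named are their paralogs, up to 4 high genes of a list, chromosomal neighbours, the 2 genes most correlated with each member and the 8 most correlated with the number of members per cell. List genes Fer, Trac, Adgre1, Ly6g, Trdc, Tcrg-C1, Tcrg-C2, Tcrg-C4 and Trdv4 were not analysed here. A few genes that these rules would name are not reported here.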

Additional observations from a re-analysis of the deposited data

Results flagged for a closer look

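The cells called S or G2M were left out of the comparisons, and the 8 genes were also found in these. Of 36 such small intestine cells, at least 10 reads were found in 38.9% for Gpr34, 33.3% for Dapk2, 27.8% for Cables1, 66.7% for Actn2, 41.7% for Fes, 72.2% for Gngt2, 55.6% for Rgs2 and 27.8% for Acpp, each above the 8.33% that a count of 0 allows. Each of these shares lay within the 95% interval of the kept small intestine cells except Gpr34 (38.9% against an upper bound of 38.1%) and Rgs2 (55.6% against 53.2%). In the spleen cells called S or G2M the same shares ran from 0%, for Dapk2 and Cables1, to 9.93%, for Gngt2.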

How the results depend on the processing

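All 8 genes stayed at least 4-fold higher in the small intestine under each of the 13 alternatives. The lowest log2 ratio among them was 2.26, for Acpp against p2 spleen cells. The genes were chosen by this contrast in the same cells, so nothing is read from this count. Leaving out the filter on low genes cannot change their ratios, and TMM and DESeq2 scaling each shift all ratios alike. Among all genes tested, 3.48% were at least 4-fold higher and 5.64% lower. These shares moved to 7.14% and 2.26% with all cells and no filter, to 6.98% and 10.7% with a pseudocount of 0.1 CPM, to 0.986% and 0.936% with 10 CPM, and to 1.72% and 2.79% with no filter on low genes, which tests more genes. Of genes past 4-fold, 38.2% were higher, against 48.5% with TMM scaling, 49.8% with DESeq2 size factors, 51.3% with a pseudocount of 10 CPM and 76% with all cells. The median share of 41.5% lay between 38.2% and 48.5%, the number of pairs found together more often than their shares give between 12 and 18, and the median correlation between -0.02 and 0.03. Of 30 alternative values for the 5 named pairs, 17 lay within 0.05 of the main value and none changed sign, but each of the 3 pairs at 0.2 or more fell to 0.14 under 1 alternative: Dapk2 with Actn2 without Cd8a cells, and Gpr34 with Dapk2 and Dapk2 with Cables1 in well columns 19 to 24. The Acpp share, lower by 10.8 percentage points in Itgae cells (-10.8), turned to 1.8 points higher without Il17a cells and 2.0 points higher without Il17a or Cd8a cells, alternatives chosen after seeing the data, as was leaving out spleen cells with Foxp3. No paired analysis was possible because each tissue was 1 sample and wells carry no replicate number. Splits with few cells, such as the 23 with Il17a, have wide intervals.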
